A study of Danio rerio with 4 samples.

Results

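Natriuretic peptide genes and genes of the cardiac response to mechanical strain were followed in hearts of ccm2 mutant zebrafish embryos. The set held 10 genes: the natriuretic peptide genes nppa, nppal and nppb, the ankyrin repeat genes ankrd1a and ankrd1b, the Xin genes xirp1 and xirp2a, the filamin gene flnca, the LIM domain gene fhl1a and the calcineurin regulator gene rcan1a. A probe was counted as a member when the platform annotation, updated to current symbols, named one of these genes. This gave 9 of the 43603 probes on the array, for 6 of the 10 genes among 14434 named genes in all. The other 4 genes, nppb, ankrd1a, xirp2a and flnca, were not analysed here because no named probe matched them. Members were chosen by gene name, with earlier results of these data known.

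Whole hearts were dissected by hand from embryos at 72 hours post fertilization (hpf) and pooled, and the RNA of each pool was hybridised to 1 single-colour Agilent array. The groups were 2 pools of hearts from embryos mutant for ccm2, allele m201, and 2 pools from wild-type (WT) embryos. No agent is named for WT embryos, while the description of both mutant samples speaks of Bmp2b overexpression, which their titles, sources and genotypes do not mention. Ccm2 is an adaptor that endothelial and endocardial cells need to hold the cerebral cavernous malformation proteins together, and the comparison asked which cardiac genes depend on it. The labels give neither the zygosity of the mutants nor the number of hearts in a pool, and do not say that pools of a group came from separate clutches, so p-values measure only the spread between these 4 samples.

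Atrial and B-type natriuretic peptides are hormones that heart muscle cells release when they are stretched, and that act through membrane guanylyl cyclases. In the embryonic vertebrate heart, nppa marks the working muscle of the chambers and is kept off in the canal between them. In adult mammals, the genes of atrial and B-type peptide and ankrd1 are widely used readouts of cardiac load. Xin proteins and filamin C sit at the intercalated disc or the Z-disc, where force is passed between sarcomeres and membrane, and FHL1 at titin's elastic region.

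Signals below are processed intensities on the log2 scale, scaled to the 75th percentile of each array, and a level can be compared between arrays but not between probes. Differences are mutant minus WT, and a gene passed when its limma adjusted p was under 0.05. On each array, 54.0% to 55.9% of features gave signal well above background, and 0 were saturated. The 4 arrays carried 1 slide number. The ccm2 transcript lay at 5.16 and 4.92 on the mutant arrays and at 5.45 and 5.79 on the WT arrays, a difference of -0.58 ± 0.22 (SE) that did not pass (limma adjusted p = 0.167). How the m201 mutation acts on transcript level is not given in the sources used here. The bmp2b transcript, to which the mutant samples' description refers, lay at 8.19 and 7.97 in mutants and at 6.69 and 6.44 in WT, and rose by 1.52 ± 0.20 (SE, limma adjusted p = 0.0235). The call for bmp2b was lost without WT replicate 1 (adjusted p = 0.0844) and without WT replicate 2 (adjusted p = 0.114), and 0 of 11526 tested genes passed without either single mutant array.

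Of the 6 genes with a probe, 5 were tested and 2 passed, 1 higher and 1 lower. Among all 11526 tested genes, 8.1% passed as higher and 9.03% as lower, 17.1% in either direction. All tested genes split into 934 higher and 1041 lower, and into 1139 higher and 817 lower with median scaling or 1295 and 770 with the deposited values left unscaled. The median difference of all tested genes was -0.04 as reported, 0.11 with median scaling and 0.17 unscaled, and the directions below are relative to the first of these. Counted through each gene's brightest probe, the mutant and WT arrays did not overlap in 2 members with higher and 3 with lower signal in mutants, where 32.6% and 35.2% of all tested genes separated in those directions, 67.8% together. nppal exceeded the filter on dim probes (the 40th percentile of an array, on at least 2 arrays) on both mutant arrays and on 1 WT array, so it could not have been tested without its mutant signal. With 5 tested genes these counts are a description only, and the members are described one by one.

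**Figure D1:**
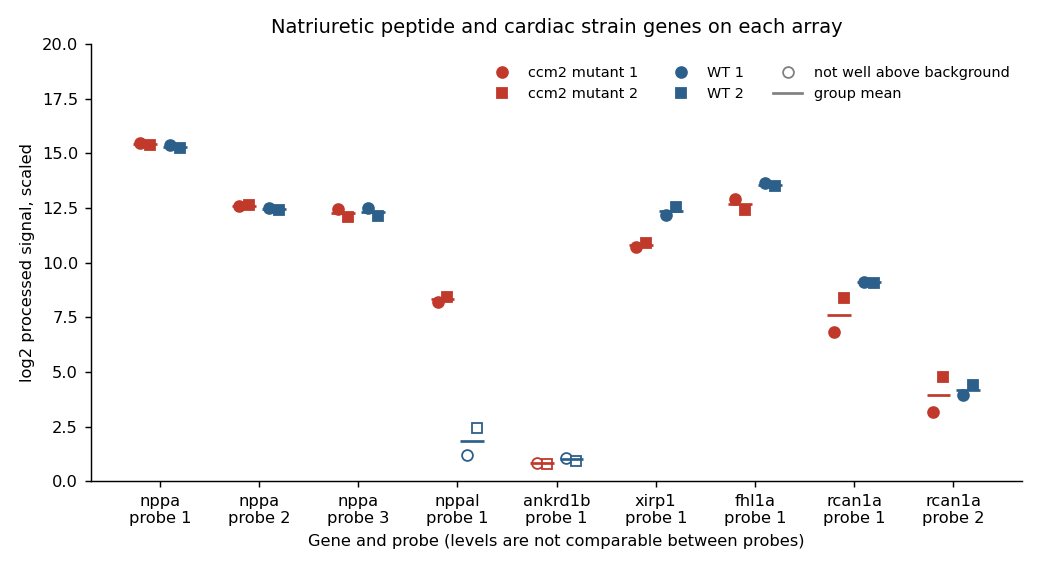
Scaled log2 processed signal of the 9 member probes on each array, mutant arrays (red) left of WT arrays (blue), with group means as bars and open symbols where a signal was not well above background. nppal stood at 8.20 and 8.43 in mutants and was near the floor in WT, whereas the 3 nppa probes lay at almost equal levels in both groups and xirp1, fhl1a and the first rcan1a probe lay lower in mutants.

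Of the peptide hormone genes, nppal, the gene for a relative of atrial natriuretic peptide, was well above background on both mutant arrays and on 0 of the 2 WT arrays. Its only probe gave 8.20 and 8.43 in mutants, against 1.19 and 2.46 in WT. The gap between the lower mutant array and the higher WT array was 5.74 log2 units. Since WT signal was not well above background, the change is a lower bound: the mutant mean over all arrays of that group was at least 40.1-fold higher than the lowest signal taken as well above background on the WT arrays. The limma difference passed (adjusted p = 0.00962), with measured means of 8.32 ± 0.16 in mutants and 1.82 ± 0.90 in WT (SD, n = 2 each).

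The raw median signals of nppal, before any background was subtracted, were 242.5 and 249 in mutants and 23 and 28 in WT, a ratio of means of 9.64. The WT values lay below the medians of all features on those arrays, which were 35 and 34.5. The log2 difference was 5.33 when all dim signals were raised to a floor and 2.17 with normexp correction of the raw signals with an offset of 50, so its size depends on how dim signals are treated, while its direction was the same under the 13 alternatives that gave a value. The call was lost without mutant replicate 1 (adjusted p = 0.0632) and without mutant replicate 2 (adjusted p = 0.0600), when a single mutant array was left and was assumed to vary like the WT arrays. It held without WT replicate 1 (0.0358) and without WT replicate 2 (0.0472).

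nppa, the gene for atrial natriuretic peptide and the standard marker of chamber muscle in the fish embryo, was among the clearly detected genes in both groups and did not pass on any of its 3 probes. Its first probe gave 15.48 and 15.40 in mutants and 15.37 and 15.25 in WT. The arrays of the groups did not overlap, but they came within 0.031 log2 units of each other. The difference was 0.13 ± 0.17 (SE, adjusted p = 0.651), and the 95% confidence interval of the fold ran from 0.785 to 1.53. With median scaling it was 0.28, in unscaled values 0.35 and with normexp on raw signal 0.36, without passing in any of them.

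The second nppa probe gave 12.59 and 12.63 in mutants, against 12.51 and 12.41 in WT. Its difference was 0.15 ± 0.17 (SE, adjusted p = 0.592). The third gave 12.46 and 12.10 in mutants and 12.51 and 12.13 in WT, so that its groups overlapped. On that probe replicate 1 exceeded replicate 2 in mutants and in WT alike, and the difference was -0.04 ± 0.25 (SE, adjusted p = 0.937), with a sign that turned to 0.11 under median scaling and 0.18 in unscaled values. The 95% interval of the fold, mutant over WT, ran from 0.802 to 1.54 on the second probe and from 0.603 to 1.57 on the third. Whether nppa and nppal differed in their response was not tested.

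The pattern of nppal across the 4 arrays was matched most closely by helt, the gene for a basic helix-loop-helix repressor, at a Euclidean distance of 0.56 between log2 signals centred on their means. si:dkey-228a15.1 followed at 0.99 and s100w, a gene of the S100 calcium-binding family, at 1.07. helt gave 8.05 and 8.14 in mutants and 1.54 and 2.10 in WT, where it too was not well above background, and s100w gave 10.59 and 10.39 in mutants and 4.42 and 4.33 in WT. For nppa the closest genes were esf1, a nucleolar protein gene, at 0.019, arcn1b, a coat protein gene, at 0.023 and rap1ab, a small GTPase gene, at 0.026. These distances rest on 4 arrays and order genes mainly by their difference between groups.

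The gene for C-type natriuretic peptide, nppc, a hormone of endothelium and bone in mammals, gave 5.23 and 4.99 in mutants and 0.93 and 1.45 in WT. It was at least 4.35-fold higher in mutants, with WT not well above background (adjusted p = 0.00873). nppc exceeded the filter on dim probes on the mutant arrays only, so a difference was a condition of its being tested. nppcl, named as C-type-like, went the other way: it gave 0.56 and 0.27 in mutants and 3.85 and 3.53 in WT, and it was at least 1.95-fold lower in mutants, whose arrays gave no signal well above background (adjusted p = 0.00907). nppcl in turn exceeded the filter on the WT arrays only, and the same condition holds for its p. Its second probe also passed as lower, with means of 0.69 in mutants and 3.09 in WT. That probe too could not have been tested without its WT signal. Both calls held without WT replicate 1 (adjusted p = 0.0378 for nppc and 0.0424 for nppcl) and without WT replicate 2 (0.0473 and 0.0497). The low signals of both genes leave their folds small, and with normexp on raw signal the difference was 0.65 for nppc, which still passed (adjusted p = 0.0155), and -0.26 for nppcl, which did not (0.119).

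Genes that process natriuretic peptides or carry their signal were next. Of 16 such genes listed, 10 were named on the array and 8 tested. Of these, 2 rose, 1 fell and 5 did not pass, where 8.1% of all tested genes rose and 9.03% fell. Their median difference was 0.06 beside -0.04 for all tested genes. furina, which codes for a proprotein convertase that cleaves hormone precursors, gave 8.78 and 8.78 in mutants and 7.53 and 7.67 in WT, a rise of 1.18 ± 0.17 (SE, adjusted p = 0.0273) whose call was lost with no filter (0.0644). npr1a, the guanylyl cyclase receptor gene for atrial and B-type peptides, gave 4.77 and 5.26 in mutants and 2.97 and 2.53 in WT, where it was not well above background, and was at least 4.07-fold higher in mutants (adjusted p = 0.0210). Its raw median signals were 52.5 and 64 in mutants and 30 and 29 in WT, and with normexp on them the difference was 0.52 against 2.26 as reported. The calls of furina and npr1a were both lost with a replicate block on the sample number (limma adjusted p = 0.0690 and 0.0581). For npr1a and furina both mutant arrays lay above both WT arrays, a separation that 32.6% of all tested genes showed. The second furin gene, furinb, had overlapping groups and did not pass (a difference of -0.18, adjusted p = 0.639).

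pcsk6, the gene for a convertase that activates the peptide-cleaving enzyme corin in mice, gave 2.64 and 3.06 in mutants and 5.73 and 5.71 in WT, and fell by 2.87 ± 0.22 (SE, adjusted p = 0.00984). On mutant array 1 it was not well above background, and with normexp on raw signal the difference was -0.81 (adjusted p = 0.00968). The receptor gene npr1b gave 2.68 and 3.27 in mutants and 4.51 and 3.34 in WT (adjusted p = 0.271). The clearance receptor gene npr3 gave 8.04 and 8.12 in mutants and 8.35 and 8.47 in WT (adjusted p = 0.278). Its second probe did not pass either. Without WT replicate 1, pcsk6 alone of these 8 genes still passed and 0 rose, and without WT replicate 2 or either mutant array 0 passed.

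Among the strain genes, xirp1 was the member with a call. It codes for Xin, an actin-binding protein of the intercalated disc and of muscle attachment sites. Its probe gave 10.73 and 10.88 in mutants, against 12.20 and 12.53 in WT. Both mutant arrays lay at least 1.31 log2 units below both WT arrays. xirp1 fell by 1.55 ± 0.21 log2 units (SE, limma adjusted p = 0.0236), a WT level 2.93-fold that of mutants, with means of 10.81 ± 0.11 in mutants and 12.36 ± 0.23 in WT (SD, n = 2 each). Its raw median signals were 1228 and 1595.5 in mutants and 3165 and 4226.5 in WT.

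The xirp1 call was lost whichever array was left out, with adjusted p = 0.0898 without mutant replicate 1, 0.0750 without mutant replicate 2, 0.0771 without WT replicate 1 and 0.109 without WT replicate 2. The difference itself stayed between -1.72 and -1.39 across these 4 fits and between -1.72 and -1.34 across all 14 alternatives. In pooled hearts, a change in the number of cells of a type and a change in RNA per cell cannot be told apart. This holds for xirp1, for nppal and for every other gene described here.

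**Figure D2:**
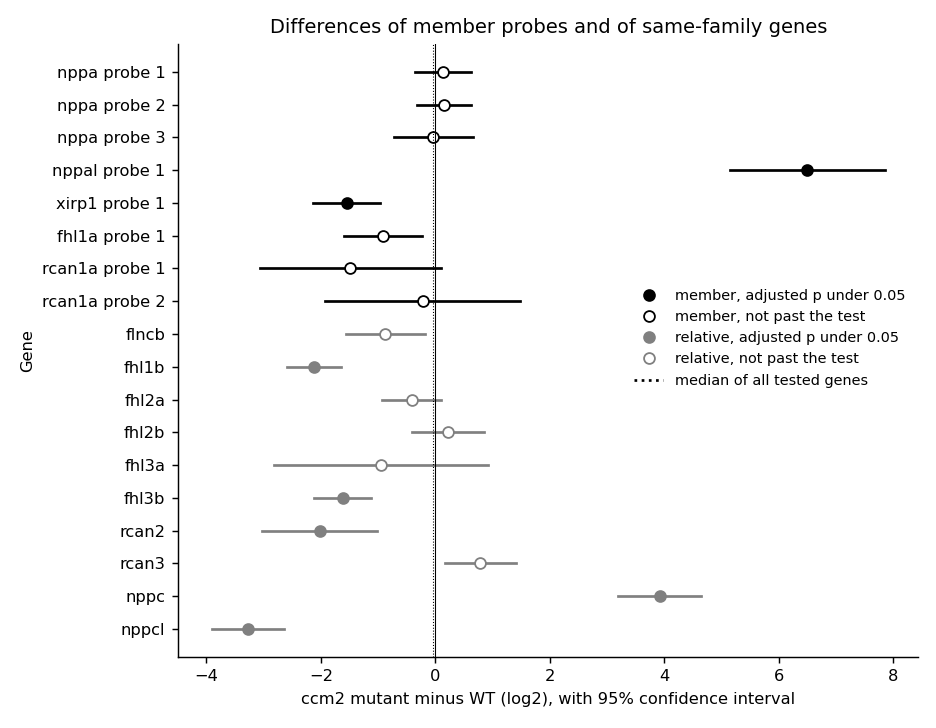
Mutant minus WT differences (log2) of the 8 tested member probes and of the brightest tested probe of 10 related genes, with 95% confidence intervals from limma, filled where the adjusted p was under 0.05. nppal and nppc lie above 0 and xirp1, fhl1b, fhl3b, rcan2 and nppcl below it, and the intervals of the 3 nppa probes span 0. For nppal, nppc and nppcl the points are fitted values against a group that was not well above background, not bounds.

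fhl1a, whose mammalian counterpart codes for a LIM protein at titin's elastic region, gave 12.90 and 12.41 in mutants and 13.62 and 13.52 in WT. The mutant arrays lay below both WT arrays by at least 0.62 log2 units. The difference of -0.91 ± 0.24 (SE) did not pass (adjusted p = 0.0843), and its unadjusted p was 0.0200. It passed under 3 of 14 alternatives: normexp on raw signal (adjusted p = 0.0346), the stricter filter on dim probes (0.0355) and a trended, robust variance model (0.0251).

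Other LIM genes of the family were measured beside it. fhl1b, the second zebrafish gene of the same type, gave 9.26 and 9.18 in mutants and 11.36 and 11.31 in WT, and fell by 2.12 ± 0.17 (SE, adjusted p = 0.0103). fhl3b fell by 1.62 ± 0.18 (SE, adjusted p = 0.0169), and its second probe gave means of 3.38 in mutants and 5.78 in WT without passing (adjusted p = 0.0538). fhl2a, the counterpart of a LIM gene of mammalian heart muscle, gave 13.62 and 13.71 in mutants and 14.19 and 13.97 in WT (adjusted p = 0.213), and fhl2b gave 10.80 and 10.51 in mutants and 10.60 and 10.28 in WT (adjusted p = 0.567). Family members thus included called falls and genes without a call. fhl3a gave 6.25 and 7.91 in mutants and 7.65 and 8.42 in WT (adjusted p = 0.398), and fhl5 was not well above background on any array.

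rcan1a codes for a protein that binds and restrains calcineurin, and in mammals its own transcription follows calcineurin activity. Its brighter probe gave 6.85 and 8.38 in mutants, against 9.11 and 9.09 in WT. The WT arrays were 0.024 log2 units apart, whereas the mutant arrays were 1.54 apart, with mutant 2 2.90-fold above mutant 1. The difference of -1.48 ± 0.57 (SE) did not pass (adjusted p = 0.166), and it was -0.72 without mutant replicate 1 and -2.25 without mutant replicate 2 (adjusted p = 0.133 and 0.0570).

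The dimmer rcan1a probe gave 3.17 and 4.77 in mutants and 3.97 and 4.42 in WT. There too mutant 2 was above mutant 1, by 3.03-fold, and the WT arrays fell between them. Its difference of -0.22 ± 0.61 (SE, adjusted p = 0.836) turned to 0.57 without mutant replicate 1 and was -1.02 without mutant replicate 2. So both probes placed the mutant pools about equally far apart, and the level of rcan1a in mutants rests on which pool is taken.

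rcan2, a related calcineurin regulator gene, gave 7.10 and 6.23 in mutants and 8.80 and 8.58 in WT, and fell by 2.02 ± 0.36 (SE, adjusted p = 0.0389). Its second probe passed as well (adjusted p = 0.0318), and the third did not (0.0707). rcan3 gave 8.90 and 8.85 in mutants and 7.88 and 8.30 in WT, a difference of 0.78 ± 0.22 (SE, adjusted p = 0.0964). The calls of rcan2, fhl1b and fhl3b were each lost without WT replicate 1 (adjusted p = 0.142, 0.0577 and 0.0734) and without WT replicate 2 (0.124, 0.0627 and 0.0924), and that of rcan2 also with no filter (0.0617).

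ankrd1b, one of the zebrafish ankrd1 genes, whose mammalian counterpart is a titin-bound protein strongly induced by cardiac load, was not well above background on any of the 4 arrays. Its processed signals were 1.87 and 1.94 in mutants and 1.89 and 1.82 in WT on the linear scale, and its raw signals 21 and 19 in mutants and 20 and 25.5 in WT. It was not tested and has no fold. The filamin gene measured in place of flnca, its relative flncb, gave 9.92 and 10.07 in mutants and 10.62 and 11.12 in WT, a difference of -0.88 ± 0.25 (SE) that did not pass (adjusted p = 0.0958).

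Taken as a list, the relatives of the members comprised 16 genes, of which 11 were named on the array and 10 tested. Of these, 1 rose, 4 fell and 5 did not pass, beside 8.1% of all tested genes called higher and 9.03% lower. The median difference was -0.91 beside -0.04 for all tested genes. The rise was that of nppc, and nppcl was 1 of the falls. Each exceeded the filter on dim probes only in the group where it was higher, so a difference was a condition of its being tested. The calls kept without a WT array were those of the same 2 genes. The counts were 1 higher and 1 lower without WT replicate 1, the same without WT replicate 2, and 0 without either mutant array.

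The list of regulators that act on natriuretic peptide genes in vertebrate hearts held 28 genes, with 22 named and 20 tested. Of the 20, 1 rose, 3 fell and 16 did not pass (median 0.06), beside 17.1% of all tested genes called in either direction. tbx3a, the gene for a T-box repressor of chamber genes, gave 7.68 and 7.97 in mutants and 5.70 and 5.91 in WT. It rose by 2.02 ± 0.21 (SE, adjusted p = 0.0151), with its other probes also called higher. Those probes had WT means of 1.27 and 1.28 and could not have been tested without their mutant signal. nkx2.5, the gene for a homeobox activator of nppa, gave 10.60 and 10.97 in mutants and 12.46 and 12.48 in WT, and fell by 1.69 ± 0.21 (SE, adjusted p = 0.0211). hey2, the gene for a transcriptional repressor found in the ventricle, gave 9.45 and 9.52 in mutants and 11.79 and 11.74 in WT, and fell by 2.28 ± 0.17 (SE, adjusted p = 0.00957). nkx2.7, a relative of nkx2.5, fell as well (-1.11, adjusted p = 0.0359), a call that was lost with median scaling (0.0558), in unscaled values (0.0570) and with no filter (0.0808). In unscaled values 3 of the 20 genes rose and 2 fell. Leaving out any 1 of the 4 arrays left 0 of the 20 genes past the test, with adjusted p of 0.0728, 0.0942 and 0.0530 for tbx3a, nkx2.5 and hey2 without WT replicate 1.

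**Figure D3:**
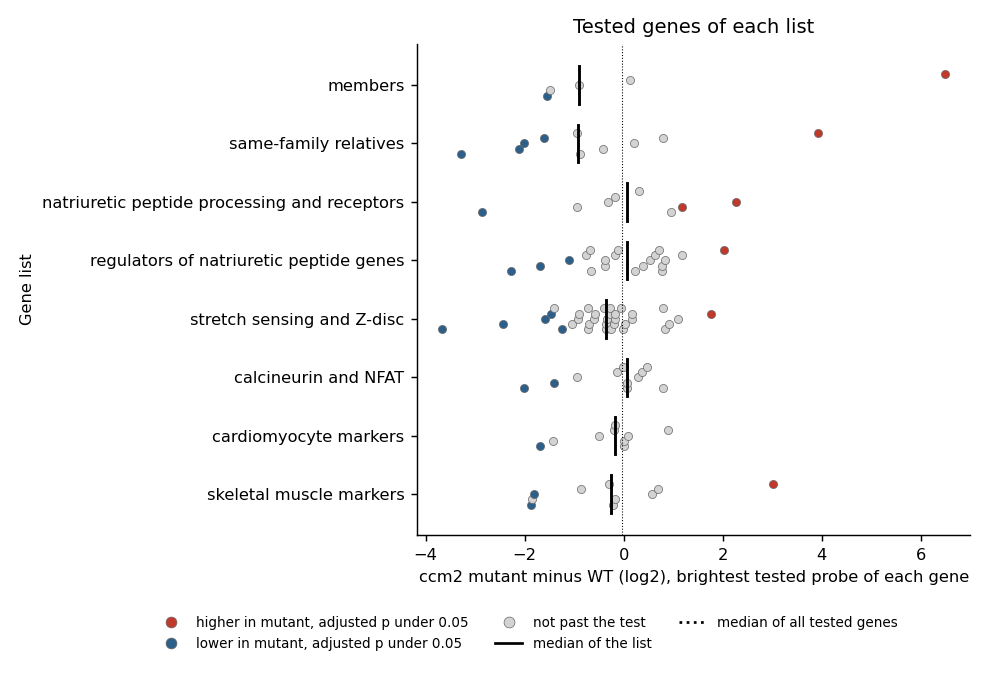
Mutant minus WT difference (log2) of each tested gene, through its brightest tested probe, for the members and 7 other lists, with the list median as a bar and the median of all tested genes as a dotted line. The members, their relatives, the stretch sensing and Z-disc genes and both muscle marker lists have medians below the dotted line, and called genes (coloured) lie on both sides of it except among the calcineurin genes and the heart muscle markers.

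Of 42 genes for stretch sensing and the Z-disc, 36 were named and 34 tested. Beside 8.1% of all tested genes called higher and 9.03% lower, 1 of the 34 rose, 5 fell and 28 did not pass. Their median was -0.35 beside -0.04 for all tested genes, or -0.32 with genes that were dim in 1 group at their bound. It was -0.20 with median scaling and -0.14 unscaled, beside 0.11 and 0.17 for all tested genes. lmod2a, a leiomodin gene of the thin filament, gave 8.96 and 8.77 in mutants and 7.05 and 7.16 in WT, and rose by 1.76 ± 0.18 (SE, adjusted p = 0.0152). pdlim5a, which codes for a PDZ and LIM protein of the Z-disc, gave 5.21 and 4.13 in mutants and 8.28 and 8.38 in WT, and fell by 3.66 ± 0.42 (SE, adjusted p = 0.0175), while its dimmer probe did not pass (adjusted p = 0.0549). With normexp on raw signal the difference of pdlim5a was -2.23. nrap, a gene for an anchoring protein of myofibrils, was at least 3.04-fold lower in mutants, with mutant signal too dim to count as above background (adjusted p = 0.0473). Its call was lost with median scaling (adjusted p = 0.0530), in unscaled values (0.0595), with quantile normalization (0.0662), with no filter (0.0701) and with normexp on raw signal (a difference of -0.29, adjusted p = 0.112). Those alternatives are for the brighter probe of nrap. Its second probe passed as lower too, with means of 0.56 in mutants and 3.59 in WT (adjusted p = 0.0164). With a mutant mean that low, this probe could not have been tested without its WT signal. The other falls were those of the Z-disc genes ldb3a (-1.25, adjusted p = 0.0279) and ldb3b (-1.48, 0.0285) and of the desmin gene desmb (-1.59, 0.0154). In unscaled values 1 of the 34 rose and 3 fell. Without any 1 of the 4 arrays 0 of these genes passed.

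Of 20 calcineurin and NFAT pathway genes, 14 were named and 11 tested. Beside 17.1% of all tested genes called in either direction, 0 of the 11 rose, 2 fell and 9 did not pass (median 0.07). The 2 were rcan2 and dyrk1b, a kinase gene, which was not well above background in either group (adjusted p = 0.0315) and has no fold. dyrk1b exceeded the filter on the WT arrays only, and its call was lost with dim signals raised to a floor (a difference of -0.26, adjusted p = 0.492), with normexp (-0.098, 0.480), with a trended, robust variance (0.132) and with no filter (0.0621). The calcineurin subunit genes that were tested, ppp3cca, ppp3ccb, ppp3r1a and ppp3r1b, did not pass, with differences between -0.14 and 0.36. Without any 1 of the 4 arrays 0 of these genes passed.

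Markers of cell types that express the members were measured on the same arrays. Of 10 heart muscle markers, 9 were named, and all 9 were well above background on every array. The summed signal of the list was 139338 to 200360 in mutants and 185963 to 201834 in WT, and its median difference was -0.18, or 0.03 in unscaled values. 1 of the 9, nkx2.5, fell and 8 did not pass, among them the contractile genes myl7 (a difference of 0.00077) and tnnt2a (0.014). Those 2 lay nearest 0, whereas mybpc3 lay at -1.42 (adjusted p = 0.129), myh7 at -0.50 (0.204) and myh6 at 0.88 (0.173). The groups did not overlap in 1 of the 9 with higher and 3 with lower signal in mutants, beside 32.6% and 35.2% of all tested genes. Skeletal muscle, which also expresses Xin and FHL1 genes, was represented by 10 named markers, of which 8 to 10 were well above background on an array. Their summed signal was 19715 to 24884 in mutants and 24009 to 26968 in WT. That sum was mostly the signal of ckma, a creatine kinase gene, with means of 14.39 in mutants and 14.56 in WT. The next highest mean of the list was 9.10, that of mylpfa in WT. Of the 10 markers, 1 rose and 2 fell, beside 8.1% and 9.03% of all tested genes. mylpfa, a fast myosin light chain gene, gave 7.21 and 7.35 in mutants and 8.70 and 9.49 in WT (adjusted p = 0.0403). The other fall was that of tnnt3a, a fast troponin gene, with a difference of -1.88 (adjusted p = 0.0119). The rise was that of pvalb1, a parvalbumin gene (3.02, adjusted p = 0.0140). The falls numbered 1 with median scaling, in unscaled values, with normexp, with no filter and with a replicate block on the sample number. Each of these settings kept 1 rise.

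Markers of other cells in the dissection were counted in the same way, beside 8.1% of all tested genes called higher and 9.03% lower. Red blood cell markers had 1 of 7 higher and 6 lower, leukocyte markers 5 of 5 higher, cartilage markers 2 of 2 tested lower, neural and retinal markers 1 of 7 higher and 4 lower, smooth muscle markers 2 of 5 lower, endothelial markers 2 of 7 higher and epicardial markers 1 of 4 higher. Median differences were -4.05 for red blood cell, 2.34 for leukocyte, -5.04 for cartilage and -1.20 for neural and retinal markers. They were -2.25 for smooth muscle, 0.49 for endothelial and -0.14 for epicardial markers, beside -0.04 for all tested genes. With genes dim in 1 group at their bound, the smooth muscle median was -1.22. Summed red blood cell marker signal was 10815 to 14378 in mutants and 88580 to 101028 in WT. Among the falls, gata1a of red blood cells and the neural and retinal genes crx and elavl3 exceeded the filter on the WT arrays only. For these 3 genes a difference was a condition of being tested. With a replicate block on the sample number, endothelial and epicardial markers had 0 called, and neural and retinal markers 0 higher and 3 lower. The other counts of this paragraph were unchanged by the block. Like those of the lists above, these counts depended on single arrays. The part of these cell types in the differences of the members was not tested.

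**Figure D4:**
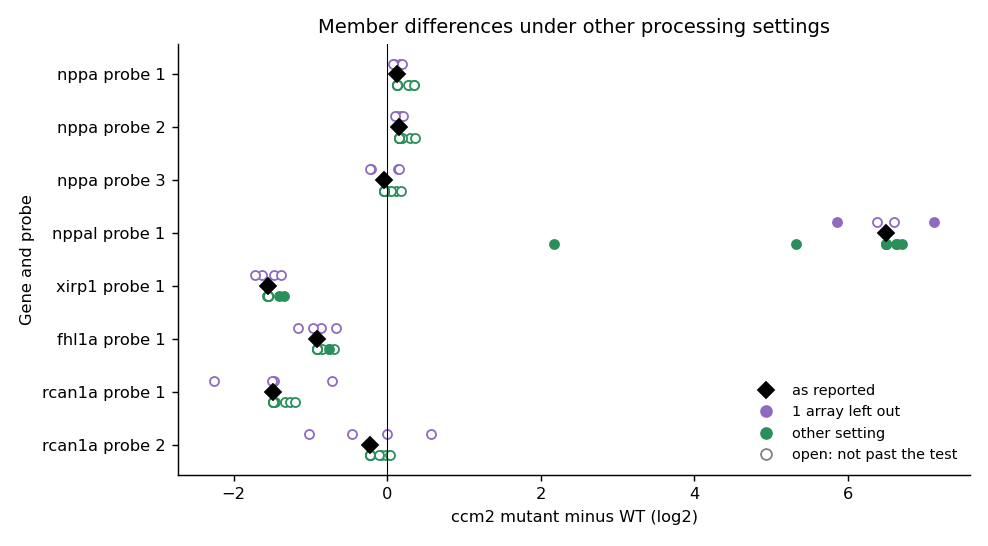
Mutant minus WT difference (log2) of each tested member probe as reported (diamond), with 1 array left out (purple, above) and under the other processing settings (green, below), open where the probe did not pass. nppal stays above 0 in all of them, between 2.17 and 7.13, and xirp1 below 0, between -1.72 and -1.34, while the third nppa probe and the dimmer rcan1a probe fall on both sides of 0.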

How the data were processed

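RNA of pooled hearts (per the labels' protocols, 200 ng with an RNA integrity number above 8) was labelled with Cy3 and hybridised to 4 arrays. Per the file headers, Agilent Feature Extraction 10.5.1.1 made the deposited processed intensity, subtracting background and removing spatial trend array by array. Arrays were not scaled to each other, since every 75th percentile equalled the one its header gives. The deposited raw median intensity served for the normexp alternative and the raw signals quoted. The deposited header file (other values) gave how many features were well above background, and features were taken so by rank within that number. Its blocks were matched by name, although the barcodes of both mutant blocks are swapped.

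From each log2 signal the 75th percentile of its array was subtracted and a common constant added. Spots of a probe were averaged. Tested were 26824 probes that exceeded the 40th percentile on at least 2 of 4 arrays, with limma 3.58.1 in R 4.3.3 (lmFit, eBayes, two-sided, residual df 2), Benjamini-Hochberg adjusted over all tested probes. Intervals are limma's 95% intervals. The fit was also run on simulated arrays with normal, independent errors, which says nothing of how far the real pools were independent. Alternatives changed the scaling, the background correction, the filter, dim signals (raised to a floor), the variance estimate, the threshold and the arrays used. Figures were drawn with matplotlib 3.10.9. A gene was counted through its brightest tested probe. Where a group was not well above background, a fold is a bound: the brighter group's mean against, per array, the higher of the lowest signal well above background and the probe's own. The platform gave 1 symbol for 21061 features and none for 22742, which are unnamed here. No coordinates are printed, because the array design and the annotation use different builds.

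Members and gene lists were chosen with earlier results of these data known. Named genes were all members with their probes, the members' relatives, up to 2 called rises and 2 called falls of each other list with the largest differences (the 2 smallest p where none was called), and the 3 genes nearest to each tested natriuretic peptide gene. Of the markers of other cells in the dissection, gata1a and crx were so picked and named, and the other genes so picked were only counted. The other genes named were chosen after their values were seen. They were bmp2b, ccm2, furinb, npr1b, npr3, nkx2.7, ldb3a, ldb3b, desmb, myl7, tnnt2a, mybpc3, myh7, myh6, ckma and elavl3. The calcineurin subunits and the neighbours of nppa were also chosen in this way. No promoter or protein sequence was used here. The sample numbers of the 2 groups share no stated source. With only 2 pairs, their deviations from the group means correlated at 0.071.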

Additional observations from a re-analysis of the deposited data

How the results depend on the processing

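With 2 arrays a group, counts depended on the fit and on single arrays. The count of called genes, 1975 as reported, was 1118 with no filter, 3065 with a trended and robust variance, 291 at a threshold of 0.01, 3227 at 0.1 and 874 with a replicate block on the sample number, and leaving out 1 array gave 0 to 567. The 0 came from leaving out mutant replicate 1 or mutant replicate 2, where limma left 3677 and 3782 genes at an unadjusted p under 0.05, against 4110 with all arrays. Of 2 called members, 1 (nppal) was called with the replicate block and 1 at the threshold of 0.01, and 0 to 1 without 1 array, with 4 members at an unadjusted p under 0.05 when either mutant array was left out. In the other lists 46 genes were called as reported, and the count was 30 with the replicate block, 14 at 0.01 and 0 to 16 without 1 array. Under the block xirp1 had an adjusted p of 0.0520. Of 110 member probe results under alternatives, 92 kept their direction and side of the threshold, 7 lost the call, 3 gained it and 8 changed sign. Sign changes were those of probe 3 of nppa, at 0.11 with median scaling, 0.18 unscaled, 0.050 with normexp on raw signal and -0.23 to 0.15 without 1 array, and of rcan1a's dimmer probe, at 0.040 with normexp and -1.02 to 0.57 without 1 array. The stricter filter, above the 60th percentile on all 4 arrays, tested neither nppal nor the dimmer rcan1a probe. The slide could not be a block, since all arrays carried 1 slide number.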

Other observations

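In the GRCz12tu annotation nppal, nppb and nppa follow one another on 1 chromosome, and the nearest named protein-coding genes that the array also names are clcn6 on the side of nppa and prdm16 and plod1a on the side of nppal. clcn6, a chloride transporter gene, gave 3.80 and 4.35 in mutants and 4.16 and 4.31 in WT (limma adjusted p = 0.720), and its 2 other probes did not pass. plod1a, a collagen-modifying enzyme gene, gave 11.85 and 12.06 in mutants and 12.64 and 12.23 in WT (adjusted p = 0.244), and prdm16, a transcription factor gene, was not well above background on any array. These genes were looked up after the values of nppal and nppa had been seen.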
